A study of Mus musculus with 55 samples.

Results

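This comparison covers 12 of the 55 mice of a study of the cerebral cortex after diffuse traumatic brain injury (TBI): the 5 mice on the vehicle diet taken 30 days after injury and the 7 on that diet taken 7 days after injury. The members were chosen by diet and day alone, as the labels give them, and all 799 genes of the panel were measured in each. The groups hold different animals, so no mouse was followed from one day to the other. The question is how far the response in injured cortex that still holds its microglia differs between the first week and the first month.

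All mice were male C57BL/6, bought at 8 to 10 weeks of age. The 12 mice ate AIN-76A chow without drug for 14 days before TBI and afterwards until the brain was taken. The study also has 7 naive and 6 day 1 mice on that diet, and naive, day 1, day 7 and day 30 mice on the same chow with PLX5622 at 1200 mg/kg, an inhibitor of the CSF1 receptor that depletes microglia (6, 8, 9 and 7 mice). The uninjured mice are labelled naive, and the sources used here do not name the injury device. RNA came from cortex microdissected from sections of 200 um where neighbouring sections of 30 um, stained for CD11b, showed enlarged or rod-shaped microglia. Itgam, which encodes CD11b, was thus used to pick the regions and is no finding between them. The choice also bears on other microglia genes, so their levels describe the picked regions and not the cortex as a whole.

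The values are normalised nCounter counts, in which barcoded probes bound to their target sequences are counted. A pre-amplification came first, so a count does not stand for a single RNA molecule of the tissue. Total recovered counts ran from 388057 to 1052388 at day 30 and from 417949 to 966846 at day 7, with medians of 536543 and 604862, and did not differ beyond the spread between mice (exact permutation test over 792 splits, two-sided, p = 0.543). Markers of neurons, astrocytes, oligodendrocytes, microglia and vessels were present in all 12 mice. Mbp, the myelin basic protein gene, ran from 3629 to 16410 at day 30 and from 3631 to 10990 at day 7, so the amount of myelin RNA in the dissected pieces varied widely within each day. Markers of leukocytes from blood or brain borders (Ccr2, Mrc1, Cd163, Cd4 and Cd8a) summed to 47.7 to 69.3 at day 30 and 41.7 to 79.5 at day 7. A level of 13.7 is used here to mark background, the level that 95% of values stayed under in 14 genes whose main site of expression is outside the brain. Mrc1 and Cd8a were under it in all 12 mice and Ccr2, Cd163 and Cd4 in some, so most of this sum cannot be told from background. Fewer cells of a type and less RNA per cell cannot be told apart in such bulk tissue.

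As background, interferons signal through their receptors to the nucleus, where a set of defence genes is switched on. IRF7 is one of those genes and is itself a transcription factor that drives more interferon, and CXCL10 is a chemokine of the set that attracts T cells through the receptor CXCR3. In injured brain, microglia, astrocytes, vessel cells and arriving monocytes can all take part, and astrocytes become reactive, with a rise of the filament protein GFAP.

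The promoters of Cxcl10, Irf7 and Ccl12 are shown because these genes lead the result, and their sequence can be set beside it. Of the 10 genes lower at day 30 with the smallest p, 5 were matched in the table of RefSeq promoters used (build GRCm38.p6), from 250 bases before to 50 bases after the start. Each was searched on both strands for the core of the interferon-stimulated response element, GAAANNGAAA, and for an NF-kB site, GGGANNTTCC. The promoter of Cxcl10 lies on chromosome 5 (chr5:92348840-92349139, minus strand), that of Irf7 on chromosome 7 (chr7:141266375-141266674, minus strand) and that of Ccl12, a chemokine for monocytes, on chromosome 11 (chr11:82101595-82101894, plus strand). Capitals mark the matches.
Cxcl10: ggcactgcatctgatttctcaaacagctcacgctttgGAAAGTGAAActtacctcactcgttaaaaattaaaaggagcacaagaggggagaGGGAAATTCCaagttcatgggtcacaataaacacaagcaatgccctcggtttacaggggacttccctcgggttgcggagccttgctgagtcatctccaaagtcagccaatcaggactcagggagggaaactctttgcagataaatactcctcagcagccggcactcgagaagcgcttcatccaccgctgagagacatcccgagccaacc
Irf7: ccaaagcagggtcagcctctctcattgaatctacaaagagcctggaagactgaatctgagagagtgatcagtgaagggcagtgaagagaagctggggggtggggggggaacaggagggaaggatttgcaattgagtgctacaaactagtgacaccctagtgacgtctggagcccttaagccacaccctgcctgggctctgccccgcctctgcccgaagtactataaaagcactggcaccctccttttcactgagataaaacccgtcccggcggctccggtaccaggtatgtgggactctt
Ccl12: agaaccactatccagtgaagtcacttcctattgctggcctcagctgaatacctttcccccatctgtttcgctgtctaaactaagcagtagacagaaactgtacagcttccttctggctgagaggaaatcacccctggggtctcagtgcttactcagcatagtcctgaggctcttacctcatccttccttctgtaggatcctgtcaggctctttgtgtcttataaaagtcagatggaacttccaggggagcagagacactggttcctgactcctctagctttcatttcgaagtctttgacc
Cxcl10 was the only one of the 5 with either match: GAAAGTGAAA from base -213 to -204 and GGGAAATTCC from base -159 to -150, counted from the start. Over 32851 mouse promoters of that length, 3.44% hold the first motif and 1.47% the second, and over the 786 promoters of panel genes 3.82% and 1.91%. A match describes the letters and is not a measured binding site.

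Set against naive mice, limma called 0 of 799 genes (0.0%) at day 7 and 0 of 799 (0.0%) at day 30, at an adjusted p under 0.05. Between the 2 days no gene passed the test either. limma called 0 of 799 genes (0.0%) at an adjusted p under 0.05, and the smallest adjusted p was 0.142, for Nos2. At an unadjusted p under 0.05, 60 genes were higher at day 30 (7.51%) and 11 lower (1.38%). Most differences were small, with 751 of 799 genes within 0.5 of 0 on the log2(value + 1) scale and 9 beyond 1, of which 7 were lower and 2 higher. Of these 9, Nos2, Egf (-1.41), Ctse (-1.13), Ccl2, H2-Ea-ps and Slc6a3 had means at or under the 13.7 that marks background on both days. Their changes cannot be told from background, so this split is no measure of direction. The median over all genes was 0.11, so a gene with no difference relative to the panel lies near 0.11 and not near 0. With each mouse centred on its own median the all-gene median was -0.01 and the split turned to 8 higher (1.0%) and 28 lower (3.5%), and with centring on 10 reference genes it was 25 higher (3.13%) and 18 lower (2.25%). Each scaling moves the change of every gene by the same small amount, so it could not turn the sign of the leading lower genes. Cxcl10 had -2.34 and -2.28 under these scalings, Irf7 -1.35 and -1.30 and Ccl12 -1.73 and -1.67.

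**Figure D1:**
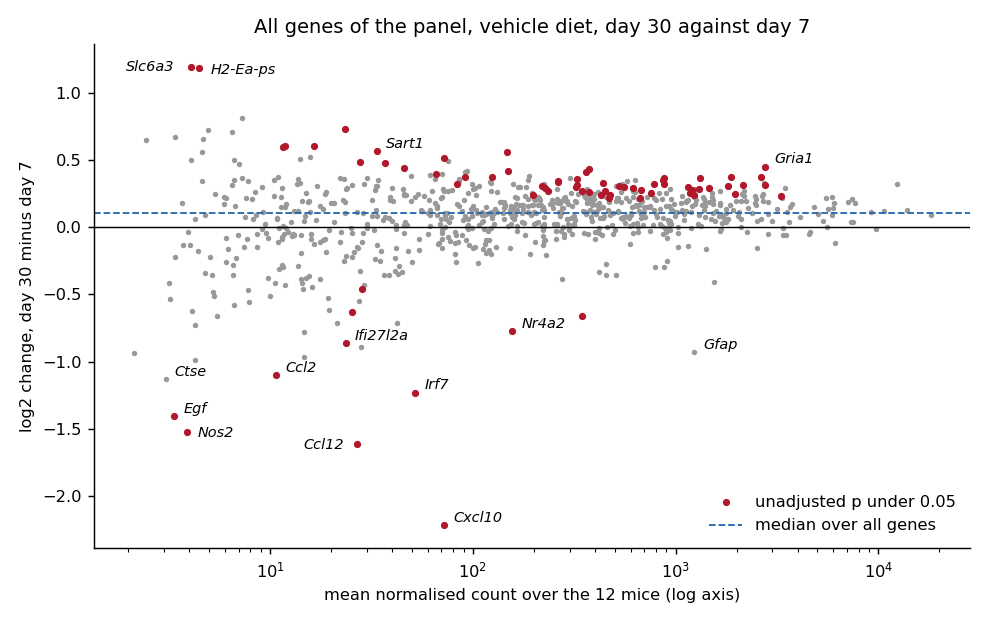
Each point is 1 of the 799 genes, with its mean normalised count over the 12 mice on a log axis and its log2 change from day 7 to day 30, and red points have an unadjusted p under 0.05. Cxcl10 lies lowest at -2.21, and the dashed line marks the all-gene median of 0.11.

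Tests on the recovered whole counts gave a short list. DESeq2 called 4 genes (0.501%), all lower at day 30, among them Cxcl10, Irf7 and Ccl12. edgeR called these 4 and also Nos2 and H2-Ea-ps (0.751% in all). limma called none of them.

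Cxcl10 showed the largest difference of all 799 genes. At day 30 it stood at 11.5, 10.15, 15.2, 8.00 and 7.95 normalised counts in mice 684, 707, 716, 722 and 728. At day 7 it ran from 5.49 in mouse 724 through a median of 49.5 to 413 in mouse 686. The day 30 mice were all low and close together, while 5 of 7 day 7 mice lay above the highest of them and 2 (718 and 724) lay among them. The log2 change was -2.21 ± 0.66 (SE, 95% interval -3.55 to -0.88, adjusted p = 0.43 in limma), with 5 of 5 day 30 mice below the day 7 median. DESeq2 gave -3.34 (adjusted p = 0.0013) and edgeR -3.29 (adjusted p = 0.0455). At day 30, 4 of 5 values are under the 13.7 that marks background, so these mice cannot be told from background and the size of the change is not exact. Naive mice had 3.35 to 13.9, a range that held 4 of 5 day 30 mice and 2 of 7 day 7 mice.

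Irf7 had the same form. It stood at 21.6, 20.3, 21.7, 18.7 and 16.9 normalised counts at day 30 (mice in the order above). At day 7 its lowest value was 13.7 in mouse 724, its median 45.4 and its highest 247 in mouse 686. Day 30 was a narrow band, and 5 of 7 day 7 mice lay above it. The log2 change was -1.23 ± 0.44 (adjusted p = 0.446 in limma, 0.008 in DESeq2, 0.0455 in edgeR). All 5 day 30 mice lay below 22.5, the highest naive value, and not far above background.

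The list of interferon response and antigen presentation genes had 6 measured members here. Their median was -0.35, beside 0.11 over all genes, and at an unadjusted p under 0.05 there were 0 higher (7.51% of all genes) and 2 lower (1.38% of all genes). The 2 were Cxcl10 and Irf7. Psmb8 and Psmb9, subunits of the immunoproteasome that cuts peptides for antigen presentation, had -0.32 ± 0.40 and -0.35 ± 0.28, and Irf8, a transcription factor of microglia and other myeloid cells, -0.36 ± 0.34. H2-Eb1, a chain of MHC class II, which presents peptides to helper T cells, had 0.11 ± 0.36, at the all-gene median. Ifi27l2a, an interferon-induced gene outside that list, had -0.86 ± 0.36 (adjusted p = 0.491 in limma). It was at 7.19 to 18.7 normalised counts at day 30, and at day 7 at 9.33 to 30.2 in 6 mice and 92.3 in mouse 686.

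**Figure D2:**
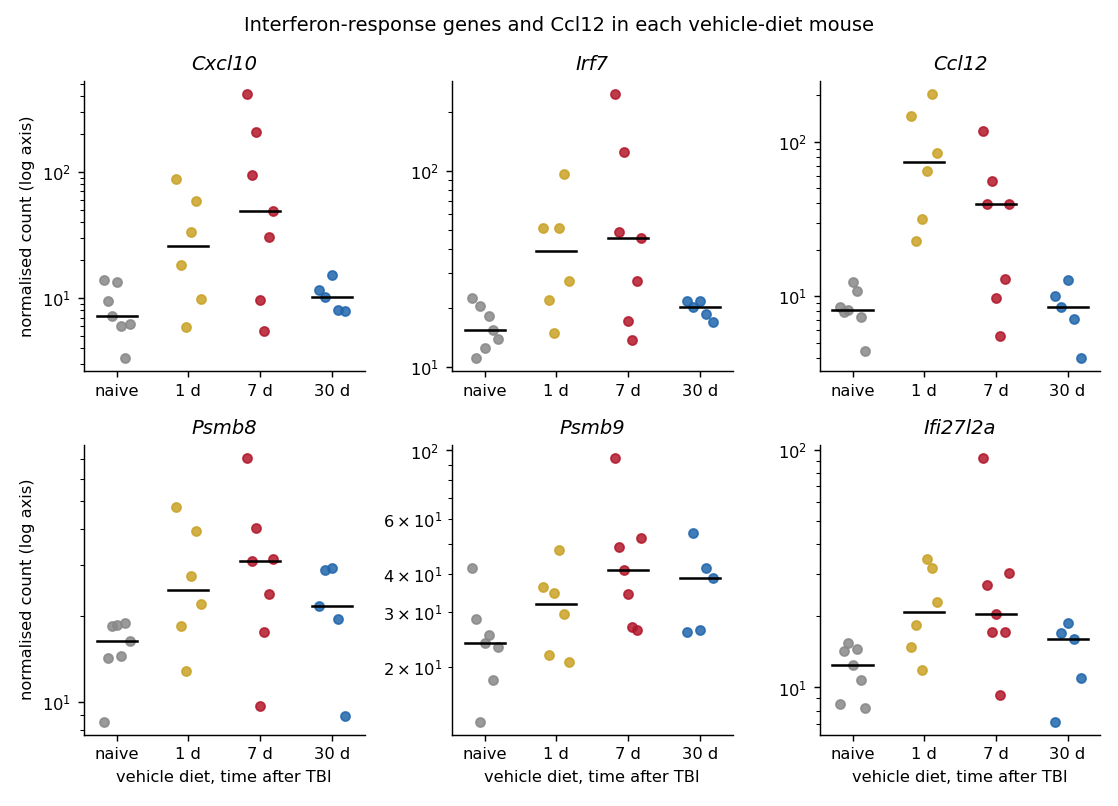
Normalised counts (log axis) of 6 genes in each vehicle-diet mouse, naive and 1, 7 and 30 days after TBI, with black bars at the group medians. At day 7 Cxcl10 runs from 5.49 to 413, and at day 30 the mice sit between 7.95 and 15.2.

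The spread between mice also differed between the days. The SD of log2 Irf7 was 1.47 at day 7 and 0.15 at day 30, a ratio of 10.1 and the largest of the 799 genes. Casp9, which is not on the interferon list, ranked 2nd with small SDs at both days (0.25 and 0.03). Cxcl10 ranked 3rd (SD 2.18 and 0.36), with a day 30 level at background. Gnb5 and Gnptg came next, so a high ratio was not particular to interferon genes. The panel as a whole showed no such pattern: 375 genes had the larger SD at day 7 and 424 at day 30, with median SDs of 0.33 and 0.35. These ranks are a description, with no test.

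Cxcl10 and Irf7 were highest in the same day 7 mice, 686 and 710. The other 4 members of the list (H2-Eb1, Irf8, Psmb8 and Psmb9) were averaged in each mouse and set against the naive mean. Mouse 686 stood at 1.35 on the log2 scale, mouse 710 at 0.86, mouse 735 at 0.66 and mouse 702 at 0.59, and mice 730, 724 and 718 at 0.26, 0.19 and -0.03. The day 30 mice lay between -0.13 (728) and 0.76 (716). For these 4 genes only mice 686 and 710 were thus above every day 30 mouse, and the groups otherwise overlapped. The overlap with mice 735 and 702 rests on mouse 716, since the next highest day 30 mouse (722) stood at 0.37. Mouse 716 was also apart in Irf8, 1 of the 4 genes (29.3 normalised counts against 8.46 to 11.6 in the other day 30 mice). Without mouse 686 the list median was -0.21 with 1 member lower at an unadjusted p under 0.05, and Irf7 had -0.82. Without mouse 724 limma called Cxcl10 (-2.76, adjusted p = 0.0363).

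Cartridge, the nCounter run that held each sample, was a covariate because the days were spread over it unevenly. Cartridges 1 to 4 held both days, and cartridge 5 held only a day 7 mouse. Within those 4, the difference in Cxcl10 was -5.05, -3.10, -1.37 and -1.19 on the log2 scale. For Irf7 it was -3.46, -1.23, -0.63 and -0.92. All 8 of these values are below 0, as are the values within the 3 RNA extraction batches (Cxcl10 -5.05, -1.95 and -1.11, Irf7 -3.46, -0.83 and -0.72). For each gene the largest is from cartridge 1, which set mouse 684 against mouse 686. Cartridge 2 set mouse 707 against mouse 702. The batches regroup the same mice, and batch 1 is the pair of cartridge 1. Both genes are shown for their lower values at day 30, so these signs are not independent checks.

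Ccl12 and Ccl2, chemokines for monocytes, were also among the genes with lower values at day 30. Ccl12 stood at 10.1, 8.46, 12.6, 7.11 and 3.98 normalised counts at day 30 (mice in the order above) and from 5.49 through a median of 39.9 to 117 at day 7. At day 30, mouse 716 was just above and mouse 728 just below the naive range of 4.40 to 12.4, the other 3 were within it, and 5 of 7 day 7 mice were above every day 30 mouse. The log2 change was -1.61 ± 0.57 (adjusted p = 0.446 in limma, 0.0118 in DESeq2, 0.0455 in edgeR). All 5 day 30 values and the naive range are under the 13.7 that marks background, so the size of this change is not exact. Its values at day 1 were higher still, with a median of 74.3. Ccl2, a related ligand of the receptor CCR2, had -1.10 ± 0.48 (adjusted p = 0.493 in limma), with 0.99 to 15.2 at day 30 and 7.14 to 26.1 at day 7. Most of these values are under 13.7 at both days, so they cannot be told from background. Ccr2, carried by monocytes, ran from 11.6 to 18.7 at day 30 and from 8.56 to 44.0 at day 7, so the groups overlapped and the highest mice were at day 7. The part of monocytes in these differences was not tested.

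Nos2, the inducible nitric oxide synthase, had the smallest p of all genes but very few counts. Its raw recovered counts were 0, 2, 3, 2 and 1 in the day 30 mice and 4 to 12 in the day 7 mice. In normalised counts, 6 of 7 day 7 mice lay above the highest day 30 mouse (3.38) and mouse 686 lay below it at 3.08. The log2 change was -1.52 ± 0.38 (adjusted p = 0.142 in limma, 0.0455 in edgeR). limma called it with the total count as a further covariate (adjusted p = 0.0422), with array weights (0.0289) and without mouse 707 (0.0482). Every one of these values is under 13.7, so these counts cannot be told from background. Naive mice had 2.41 to 6.42, and day 7 mice were not higher than they were beyond the spread (0.25 ± 0.35).

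The inflammatory cytokine and NF-kB list of 45 measured genes had a median of -0.01, and at an unadjusted p under 0.05 it had 0 higher (7.51% of all genes) and 3 lower (1.38% of all genes), which were Ccl12, Ccl2 and Nos2. Il1r1, the receptor for interleukin 1, had 0.50 ± 0.25 (unadjusted p = 0.051).

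Values of reactive astrocyte genes varied widely from mouse to mouse at both days, and no difference passed the test. Gfap stood at 213, 610, 2574, 685 and 285 normalised counts at day 30. At day 7 it ran from 228 in mouse 724 through a median of 1131 to 2797 in mouse 735. Mouse 716 was as high as the highest day 7 mice, and the groups overlapped over nearly the whole range. The log2 change was -0.93 ± 0.60 (95% interval -2.14 to 0.28, adjusted p = 0.609 in limma), and without mouse 716 it was -1.52. Within cartridges 1 to 4 it was -3.70, -0.89, -1.76 and 1.93, so cartridge 4, which held mouse 716, had the opposite sign.

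Cd44, an adhesion receptor of reactive glia, followed the same mice, with 62.7 in mouse 716 and 17.3 to 27.1 in the other day 30 mice against 17.1 to 79.7 at day 7. Its log2 change was -0.72 ± 0.47 (adjusted p = 0.609 in limma). Tspo, a protein of the outer mitochondrial membrane used as an imaging marker of reactive glia, had -0.46 ± 0.22 (unadjusted p = 0.0386, adjusted p = 0.51 in limma). The 12 measured members of the reactive astrocyte list, which also holds Cxcl10, had a median of -0.18, and 2 of them (Cxcl10 and Tspo) were lower and 0 higher at that threshold, where 1.38% of all genes were lower. The count of lower members was 4 without mouse 716, and 1 without any 1 of mice 722, 728, 686, 702, 710 and 735. That median was 0.04 without mouse 722 and -0.38 without mouse 684. The 10 genes of the general astrocyte list had a median of -0.02.

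Microglia genes gave no difference between the days that the test could show, in regions that were themselves picked by the look of their microglia. Csf1r, the receptor microglia need to survive, stood at 194, 191, 360, 277 and 222 normalised counts at day 30. At day 7 it ran from 124 through a median of 225 to 394. The day 30 values all lay inside the day 7 range, and the log2 change was 0.02 ± 0.39 (95% interval -0.77 to 0.80), an interval that still allows a change of that size either way. Cx3cr1, the fractalkine receptor, and P2ry12, a purinergic receptor of resting microglia, had 0.16 ± 0.36 and 0.15 ± 0.28. Trem2, a lipid receptor of activated microglia, had -0.17 ± 0.39, and Cd68, a lysosomal protein of phagocytes, -0.12 ± 0.34. Cx3cr1 was above the day 7 median in 5 of 5 day 30 mice, but mice 686 and 735 at day 7 were higher than all of them.

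The 25 measured microglia genes had a median of -0.17, and 0 of them were past an unadjusted p of 0.05 either way. Over all genes 7.51% were higher and 1.38% lower at that threshold, so in short lists a count of 0 is not far from that share. The median of the microglia list was 0.01 without mouse 686. The 9 complement genes had -0.26, also with 0 past that threshold, and -0.01 without mouse 686. Both lists hold Itgam, the gene of the stain that picked the regions. C1qa, a chain of the protein that starts the classical complement pathway, had -0.38 ± 0.54, with 119 to 466.5 at day 30 and 122 to 521 at day 7. Averaged over the microglia list and set against the naive mean, mice 735 and 686 stood at 1.15 and 1.11 at day 7 and mouse 716 at 0.72 at day 30, while 724 (-0.21), 718 (-0.15) and 728 (-0.09) were just under the naive mean.

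**Figure D3:**
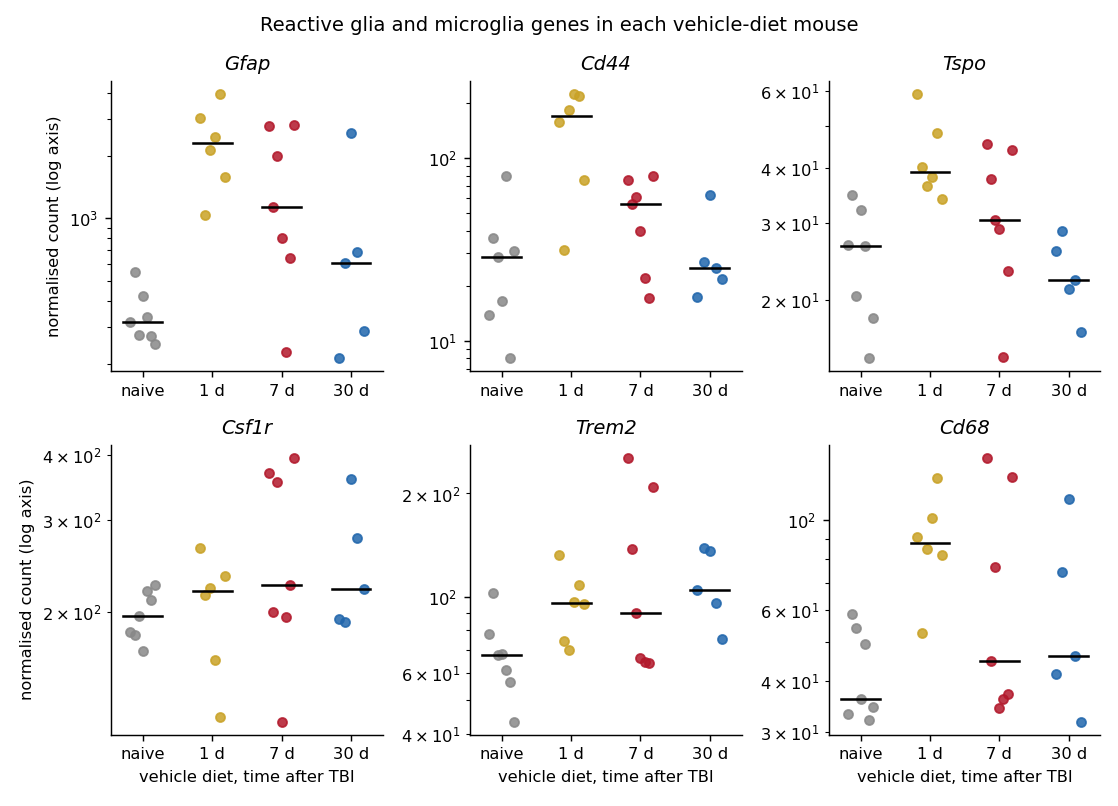
Normalised counts (log axis) of 3 reactive glia genes and 3 microglia genes in each vehicle-diet mouse, with black bars at the group medians. In Gfap 1 day 30 mouse (716, at 2574) sits with the highest day 7 mice, and in Csf1r the day 7 and day 30 mice overlap over most of the range.

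Some genes of blood vessels were among those with slightly higher values at day 30. The endothelium and pericyte list of 19 measured genes had the highest median of the 27 lists, 0.27, beside 0.11 over all genes, and it had 4 higher and 0 lower past an unadjusted p of 0.05 (7.51% of all genes were higher). The 4 were Eng, a TGF-beta co-receptor of endothelium (0.42 ± 0.18), Icam2, an endothelial adhesion molecule (0.60 ± 0.27), Slc2a1, the glucose transporter of the blood-brain barrier (0.36 ± 0.17), and Esam, a protein of endothelial junctions (0.37 ± 0.19). Their adjusted p in limma was 0.491 to 0.531. Of the whole list, 17 members were above 0 and 2 below, beside 571 above and 228 below over all genes. The 2 members below 0 were Itga5 (-0.62 ± 0.45), the largest change of the list in size, and Icam1 (-0.35 ± 0.29). Pecam1 (0.10), Egfl7 (0.07), Cd34 (0.08), Nostrin (0.10), Cspg4 (0.11) and Angpt2 (0.07) were no higher than the all-gene median. With centring on the sample median the list median was 0.15 and 0 members were past that threshold. The count of higher members was also 0 without mouse 684 or without mouse 707, and 2 without mouse 702 or without mouse 718. It rose to 6 without mouse 716 or without mouse 728, and to 5 without mouse 686. The count over all genes also fell without mouse 684 and rose without mouse 716, as the last section gives. Icam2 was at 16.9 to 25.4 at day 30 and at 10.4 to 15.2 in 6 of 7 day 7 mice, with mouse 724 at 23.1. Its day 7 range reaches under the 13.7 that marks background, so the size of its change is not exact. Mmp2, a protease that cleaves basement membrane, had 0.59 ± 0.26 (adjusted p = 0.491 in limma), with a mean of 11.6 over the 12 mice, under the 13.7 that marks background.

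Neuronal and synaptic genes differed little. The glutamate signalling list (25 genes) had a median of 0.14, and 2 of them were higher and 0 lower at that threshold, close to the 7.51% of all genes. The count was 1 without mouse 707, 4 or 5 without any 1 of mice 716, 718, 722 and 728, and 0 with centring on the sample median. Without mouse 716 the count over all genes rose as well, as the last section gives. The 2 higher members were Gria1, a subunit of AMPA receptors (0.45 ± 0.17), and Grin2a, a subunit of NMDA receptors (0.37 ± 0.13). Gria1 stood at 2585, 4410, 4359, 2651 and 2318 at day 30 and ran from 1748 to 3034 at day 7, so mice 707 and 716 were above every day 7 mouse and the other 3 were among them. Gad1, which makes the transmitter GABA, had 0.31 ± 0.14 and Mapt, which encodes tau, 0.24 ± 0.10. The lists of synaptic vesicle genes (34), GABA and interneuron genes (18) and pan-neuronal genes (12) had medians of 0.14, 0.12 and 0.12, at the all-gene value.

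The activity-regulated and CREB list (40 genes) had a median of 0.18, and 6 of them were higher and 1 lower at that threshold (7.51% and 1.38% of all genes). With centring on the sample median 0 were higher. The count of higher members was 10 without mouse 716, 2 without mouse 684, and 3 without any 1 of mice 707, 728, 686 and 702. The count over all genes also rose without mouse 716 and fell without mouse 684, as the last section gives. These 2 swings are thus not particular to the list. Crebbp, a co-activator of the transcription factor CREB, had 0.25 ± 0.09. The 1 lower was Nr4a2, an immediate early transcription factor, at -0.77 ± 0.32 (adjusted p = 0.491 in limma). It stood at 23, 113, 168, 172 and 105 at day 30 and ran from 96.7 to 386 at day 7, and without mouse 684, the lowest, its change was -0.38. The neurodegeneration-associated list (35 genes) had a median of 0.15 with 6 higher (7.51% of all genes) and 0 lower, among them Atxn2, an RNA-binding protein (0.30 ± 0.10). Without mouse 684 or without mouse 702 it had 1 higher, without mouse 686 or without mouse 707 it had 2, and with centring on the sample median 1. The count rose to 9 without mouse 716, and to 7 without mouse 722 or without mouse 735. For mice 684 and 716 these counts again moved the same way as the count over all genes. The oligodendrocyte and myelin list (23 genes) had a median of 0.04, with 0 higher and 0 lower (7.51% and 1.38% of all genes).

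The other genes higher at day 30 with the smallest p had changes between 0.29 and 0.56, with mean levels of 33.6 for Sart1 and of 325 to 1148 for the others. They were Sf3a2 and Sart1, parts of the splicing machinery, Ntng1, an axon guidance protein, Akt1 and Src, signalling kinases, Atp2b3, a calcium pump, Amigo1, a neuronal adhesion protein, and Pnkd. Sf3a2 had 0.32 ± 0.10 and Ntng1 0.41 ± 0.14, and Pnkd, at 0.30 ± 0.11, was called by limma without mouse 716 (0.47, adjusted p = 0.0077). Each of these has to be read against the all-gene median of 0.11.

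Only 3 genes had groups that did not overlap, all higher at day 30 (0.375%), and 0 genes lay wholly lower (0.0%). Sart1 was at 33.1 to 57.5 at day 30 and 16.5 to 33.0 at day 7, so the 2 groups touch (0.56 ± 0.18, adjusted p = 0.446 in limma). H2-Ea-ps, a pseudogene of an MHC class II chain, was at 5.07 to 8.95 and 0.77 to 4.30 (1.18 ± 0.33, adjusted p = 0.265 in limma, 0.0455 in edgeR). Slc6a3, the dopamine transporter, was at 3.98 to 8.63 and 0 to 3.96 (1.19 ± 0.45, adjusted p = 0.446 in limma). The last 2 are under the 13.7 that marks background, with single-digit levels in all 12 mice.

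**Figure D4:**
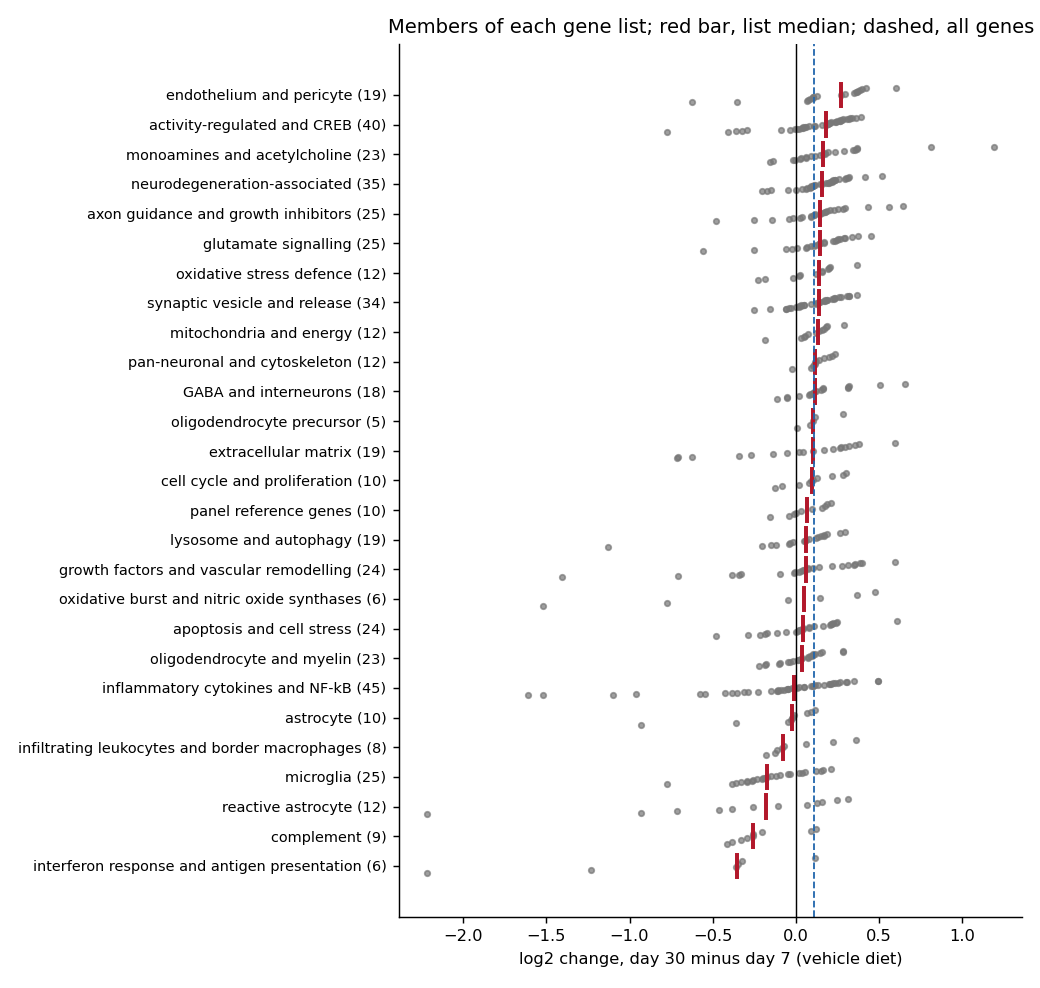
Each grey point is a gene's log2 change from day 7 to day 30 on the vehicle diet, grouped in 27 gene lists with the number of measured members in brackets; red bars are list medians and the dashed line is the all-gene median of 0.11. The interferon list lies lowest with a median of -0.35 and the endothelium and pericyte list highest with 0.27.

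Mice on PLX5622 gave a comparison in other animals, 7 at day 30 against 9 at day 7. limma called 0 of 799 genes there (0.0%), and the smallest adjusted p was 0.375. Past an unadjusted p of 0.05 there were 24 higher (3.0%) and 9 lower (1.13%). Cxcl10 ran from 4.96 to 20.3 at day 30 and from 5.02 through a median of 16.2 to 289 at day 7, and its log2 change was -0.62 ± 0.57. Irf7 had 0.02 ± 0.38, with overlapping groups. Ccl12 was at or under 11.2 in all 16 mice, below the level that marks background.

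The difference between the diets was tested directly, and 0 of 799 genes were called (0.0%), with 18 above 0 (2.25%) and 14 below (1.75%) at an unadjusted p under 0.05 and a smallest adjusted p of 0.953. The vehicle change minus the PLX5622 change was -1.25 ± 0.58 for Irf7 (unadjusted p = 0.0359) and -1.59 ± 0.87 for Cxcl10 (unadjusted p = 0.0737), each with an adjusted p of 0.953 in limma. The lower values of interferon genes at day 30 are thus not shown to differ between the diets. Nos2 on PLX5622 had a log2 change of the same sign (-0.81 ± 0.32, unadjusted p = 0.0153, adjusted p = 0.805 in limma), with 1.56 to 3.57 at day 30 and 0.39 to 8.46 at day 7. For Trem2 the PLX5622 change was 1.14 ± 0.33 and the difference -1.31 ± 0.51 (unadjusted p = 0.0127), and for Cx3cr1 they were 0.81 ± 0.31 and -0.64 ± 0.47.

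**Figure D5:**
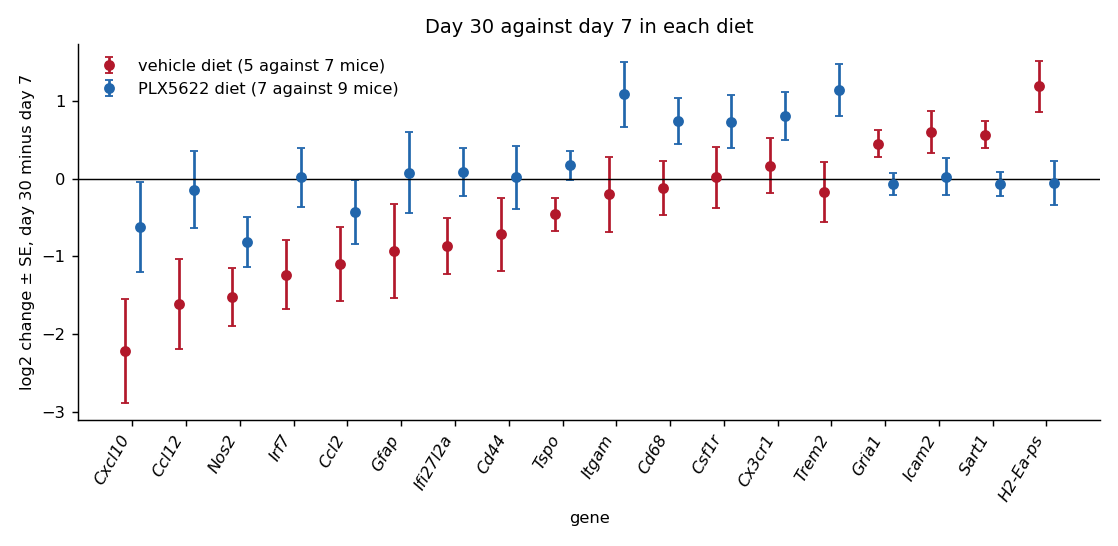
Log2 change from day 7 to day 30 with its SE for 18 genes in each diet, from the limma model with cartridge as covariate. Cxcl10 has -2.21 on vehicle and -0.62 on PLX5622, and microglia genes such as Trem2 lie above 0 on PLX5622 (1.14) and near 0 on vehicle (-0.17).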

How the data were processed

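Expression of 799 genes was measured by nanoString nCounter in 55 mice, 1 sample per mouse. The authors deposited a normalised signal on a linear scale, each sample's barcode counts scaled by its own factor. DESeq2 is named, with no version, per the submitters' processing notes. The sources used here do not give the background step. Dividing each value by that of 1 count gave whole numbers (100% of values, tolerance 0.02), and these recovered counts summed to 176038 to 1208609 per mouse. No replicates were alike enough to be 1 sample deposited again (chi-square per degree of freedom at least 7.86).

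limma 3.58.1 in R 4.3.3 (lmFit, eBayes with a trend) was fitted to log2(value + 1) of all 55 mice, with a mean for each of 8 groups and cartridge (5 levels) as covariate. Tests are two-sided, with Benjamini-Hochberg adjustment over the 799 genes and a threshold of 0.05. Fold changes on that scale are too small for low genes. DESeq2 1.42.0 and edgeR 4.0.16 (quasi-likelihood) were run on the recovered counts as alternatives. The limma fit was run on simulated data with 200 genes changed, by more than most genes differ here, and with no cartridge effect. That run does not show how well the fit finds the small differences of these mice. Gene lists are described by counts and medians. The members, the 27 lists and the 14 genes of other tissues were chosen with earlier results of these data known. Named genes follow a rule: the 14 higher and 10 lower genes with the smallest p, those DESeq2 or edgeR called, 3 per list, 6 for the difference between diets and fixed markers. Psmb8, H2-Eb1, Esam and Il1r1 were added after their values were seen. 1 gene is not reported here: it stayed in the fits and counts over all genes and was left out of the lists. Symbols matched RefSeq as current names (792) or synonyms (7). Groups follow the labels; mouse 684 has a misspelt diet, and mouse 695 carries 7d in its title but is labelled naive.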

Additional observations from a re-analysis of the deposited data

Results flagged for a closer look

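For 45 named genes, each group was searched for a mouse whose gap to its nearest neighbour exceeded the critical share of the group's range (0.71 for 5 mice, 0.568 for 7). Of 90 groups tested, 14 had such a mouse. Chance alone marks about 1 in 20 only where values follow a normal curve and groups are independent. These gaps were taken on counts without a log, and several flagged genes come from the same mouse. The 14 can therefore not be set against that share.

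Mouse 716 stood apart at day 30 in Gfap (2574 normalised counts against 213 to 685 in the others), Cd44 (62.7 against 17.3 to 27.1), C1qa (466.5 against 119 to 213), Irf8 (29.3 against 8.46 to 11.6) and Nos1 (85.4 against 31.8 to 36.4). Mouse 684 was high at day 30 in Akt1 (1248 against 899 to 948) and Amigo1 (874 against 564 to 651). Mouse 707 was high in P2ry12 (682 against 366 to 450) and in Slc2a1 (566 against 284 to 349).

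At day 7, mouse 686 was high in Psmb9 (94.6 against 26.3 to 52.2) and Ifi27l2a (92.3 against 9.33 to 30.2). Mouse 710 was high in Nr4a2 (386 against 96.7 to 208) and low in Sart1 (16.5 against 26.9 to 33.0), and mouse 724 was high in Icam2 (23.1 against 10.4 to 15.2).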

How the results depend on the processing

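The count of 0 called genes between day 30 and day 7 on vehicle became 1 with the total count as a further covariate, 1 with array weights, 4 with DESeq2 and 6 with edgeR, and 0 to 1 without any 1 mouse. On PLX5622 it became 9 with array weights, 1 with DESeq2 and 1 with edgeR, and 0 to 2 without any 1 mouse. At day 7 against naive it was 1 with the extraction batch as covariate, 4 centred on the sample median, 3 centred on the reference genes, 2 with a pseudocount of 10, 12 with DESeq2 and 9 with edgeR, and 0 to 8 without any 1 mouse. At day 30 against naive it was 1 with the total count as covariate, 1 centred on the sample median, 1 without genes of low mean, 1 with array weights and 1 with DESeq2, and 0 to 1 without any 1 mouse. The test of the difference between diets called 0 genes under every alternative run. The cause of these changes was not tested. The difference in mean log2 total count was -0.20, and -0.43 to -0.07 without any 1 mouse.

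Of the 45 genes followed, 6 changed sign under some setting. H2-Eb1 was -0.0318 without a covariate, -0.0057 centred on the sample median and -0.007 with DESeq2. Csf1r was -0.0341 without a covariate, -0.10 centred on the sample median, -0.0476 centred on the reference genes, -0.0001 with a pseudocount of 10, -0.012 on the compared groups alone, -0.18 with DESeq2, -0.15 with edgeR and -0.21 to 0.19 without any 1 mouse. Without any 1 mouse, Cd68 ran from -0.38 to 0.15, Itgam from -0.48 to 0.0061, Trem2 from -0.36 to 0.0154 and P2ry12 from -0.0278 to 0.26. Over all genes, the count higher at an unadjusted p under 0.05 was 24 without mouse 684 and 95 without mouse 716, against 60.

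No paired analysis was possible because each mouse number names 1 animal and no number is shared between groups. With 5 and 7 mice and a median SE of 0.18, small changes could not be called, and genes under about 13.7 normalised counts cannot be told from background.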
